A study of Mus musculus with 2 samples.

Results

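Wide stretches of open chromatin in mouse calf muscle were taken as the joined regions of at least 2000 bp in which both DNase-seq libraries listed the bases as significantly cut. The members were chosen by measured values: bases with a false discovery rate (FDR) under 0.05 in both libraries were kept on chromosomes 1 to 19, runs of them at most 150 bp apart were merged, and the width of the joined region decided. This gave 707 wide regions among 86023 joined regions, or 0.822% of them. They covered 1798906 bp, which was 6.00% of the bases in all joined regions, whose median width was 240 bp. Width was therefore not a finding here, and no test was made of anything that followed from it.

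The tissue was gastrocnemius, the large calf muscle, of male B6CASTF1/J mice aged 10 days, the F1 strain of a cross between C57BL/6J and CAST/EiJ; no treatment is labelled. There was 1 group with 2 libraries, called replicate 1 and replicate 2 below. The labels name 3 males per sample, give the same donor record for both and do not say whether tissue was pooled, so the spread between the libraries can be technical. This was bulk tissue, in which fewer cells of a type and less open chromatin per cell cannot be told apart. The promoters of all 8 skeletal muscle markers examined, Ckm, Acta1, Mylpf, Myod1, Des, Ryr1, Tnnt3 and Mybpc2, held a peak within 500 bp of a start in both libraries. None of 4 hepatocyte and none of 4 lymphocyte markers did, while 3 of 4 neuronal markers did (Snap25, Syt1 and Rbfox3). No marker of any of the 4 sets started in a wide region. Replicate 1 listed 35695993 bases on all chromosomes and replicate 2 listed 43782204.

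DNase I cuts DNA where it is not wrapped in nucleosomes, and the cut rate along the genome marks promoters, enhancers and insulators. A bound protein shields its own few bases from the enzyme, which leaves a footprint inside the open stretch. Promoters in CpG islands, stretches where the CpG dinucleotide is not depleted as it is in most of the genome, are commonly open in many tissues. Genes of developmental and signalling regulators often have long or clustered CpG islands.

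Short sequences from the widest regions come first, because each shows a protected site that both libraries reported. For each of the 9 regions of at least 5000 bp, the widest footprint shared by the libraries outside annotated exons is given with 25 bases on each side, on the forward strand of mm10, 5′ to 3′. Capitals mark the bases inside a footprint in both libraries.
Pcdh7 (chr5:57715880-57715952): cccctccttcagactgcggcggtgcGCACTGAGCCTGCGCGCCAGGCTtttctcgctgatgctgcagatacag
Plec (chr15:76196852-76196931): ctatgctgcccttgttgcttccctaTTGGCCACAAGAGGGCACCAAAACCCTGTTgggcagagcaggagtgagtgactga
Irs1 (chr1:82286551-82286617): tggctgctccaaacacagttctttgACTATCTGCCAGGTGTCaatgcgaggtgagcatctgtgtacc
Marcks (chr10:37137072-37137165): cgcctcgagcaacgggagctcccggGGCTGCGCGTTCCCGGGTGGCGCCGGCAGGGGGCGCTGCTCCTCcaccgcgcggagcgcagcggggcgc
Nfatc4 (chr14:55823660-55823741): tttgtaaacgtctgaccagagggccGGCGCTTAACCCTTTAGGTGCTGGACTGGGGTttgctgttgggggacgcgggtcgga
Zfp503 (chr14:21988453-21988525): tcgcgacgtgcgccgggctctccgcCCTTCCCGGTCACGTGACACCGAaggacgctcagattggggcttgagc
Hdac5 (chr11:102219065-102219142): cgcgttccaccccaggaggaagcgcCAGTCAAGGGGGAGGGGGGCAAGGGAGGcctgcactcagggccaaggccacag
Dbp (chr7:45704772-45704850): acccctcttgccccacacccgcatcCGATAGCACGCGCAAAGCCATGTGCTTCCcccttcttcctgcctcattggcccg
Tns1 (chr1:73915744-73915806): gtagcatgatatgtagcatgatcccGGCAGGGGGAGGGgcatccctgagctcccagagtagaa
The shared protected stretches were from 13 bp long, within Tns1, to 44 bp long, at Marcks. By the annotation, the window at Dbp was intergenic and the other 8 lay in introns. The window at Pcdh7 lay upstream of the most upstream coding start in its region, which also held a start of the noncoding gene 4932441J04Rik.

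Further stretches come from wide regions that hold no annotated start, and show what the highest peak shared by both libraries looked like there. These regions were picked after their values were seen, for the range of distance and signal they cover. On the depth-scaled scale of the deposited peak signal, the Irf2bp2 peak was 16.8 in replicate 1 and 20.1 in replicate 2, and that near Spen was 14.1 and 22.8. The peak inside Flnc was 3.19 and 7.69, and that near Acta1 was 2.78 and 3.73. The stretch near Zfp36l2 reached 0.201 and 0.223, and no base of it was in a footprint of both libraries.
near Irf2bp2 (chr8:126666561-126666760): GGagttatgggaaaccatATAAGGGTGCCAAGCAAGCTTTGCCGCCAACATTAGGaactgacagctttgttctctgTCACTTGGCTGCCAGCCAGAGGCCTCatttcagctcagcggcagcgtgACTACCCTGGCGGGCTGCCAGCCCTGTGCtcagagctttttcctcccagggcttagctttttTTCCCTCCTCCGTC
near Spen (chr4:141545901-141546120): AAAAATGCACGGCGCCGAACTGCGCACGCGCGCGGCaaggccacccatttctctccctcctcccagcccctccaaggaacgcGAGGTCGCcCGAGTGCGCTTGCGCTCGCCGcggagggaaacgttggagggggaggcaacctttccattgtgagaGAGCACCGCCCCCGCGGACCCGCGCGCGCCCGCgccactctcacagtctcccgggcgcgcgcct
within Flnc (chr6:29435321-29435540): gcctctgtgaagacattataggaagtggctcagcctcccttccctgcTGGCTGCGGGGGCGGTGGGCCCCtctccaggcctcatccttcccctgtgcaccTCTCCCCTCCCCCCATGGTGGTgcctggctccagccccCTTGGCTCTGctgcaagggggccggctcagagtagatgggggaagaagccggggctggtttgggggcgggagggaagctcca
near Acta1 (chr8:123891341-123891580): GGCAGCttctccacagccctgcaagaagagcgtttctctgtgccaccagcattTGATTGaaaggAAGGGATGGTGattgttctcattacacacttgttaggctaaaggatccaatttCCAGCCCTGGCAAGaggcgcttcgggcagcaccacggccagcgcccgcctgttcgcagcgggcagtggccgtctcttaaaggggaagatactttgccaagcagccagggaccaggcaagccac
near Zfp36l2 (chr17:84166951-84167250): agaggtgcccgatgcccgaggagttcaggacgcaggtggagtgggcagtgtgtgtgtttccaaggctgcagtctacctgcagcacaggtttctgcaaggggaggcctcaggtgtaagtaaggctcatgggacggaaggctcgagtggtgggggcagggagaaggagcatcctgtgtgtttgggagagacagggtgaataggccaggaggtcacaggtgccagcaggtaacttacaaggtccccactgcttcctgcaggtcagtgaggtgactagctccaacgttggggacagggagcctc
Within the Irf2bp2 stretch, 1 match to the CArG box of SRF, the serum response factor, had its middle in a footprint of both libraries. Near Spen and within Flnc the same held for the GC box GGGCGG, which SP and KLF factors bind.

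The wide regions ran from 2001 to 6053 bp with a median of 2332 bp. There were 250 of at least 2500 bp, 119 of at least 3000 bp, 24 of at least 4000 bp and 9 of at least 5000 bp. Few of the bases were bridged gaps: a median of 99.0% of the bases in a region were listed in both libraries, and the lowest share was 75.9%. A region had a median of 3 runs and at most 25, and 218 regions were a single unbroken run. Joining still bore on which regions reached 2000 bp: there were 541 with gaps up to 50 bp and 963 with gaps up to 300 bp. In 149 regions a gap of over 100 bp was bridged. Just inside the threshold lay Rassf2 at 2001 bp, the shared promoter of Hnrnpul2 and Ttc9c and the start of Cand1 at 2002 bp each, F930015N05Rik with Hs3st3a1 at 2003 bp and Bahd1 at 2004 bp. Just outside lay Arhgap5, Gab2 and Lrp4 at 1999 bp each, Fkbp10 with P3h4 at 1998 bp and a start-free region near Borcs6 at 1998 bp. CpG ratios and peak signals of the regions on the 2 sides of the threshold overlapped, so 2000 bp is a cut through a continuous range.

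The widest region spanned 6053 bp over the start of Pcdh7, a protocadherin that mediates cell adhesion (chr5:57714597-57720649). It held 12 peaks in replicate 1 and 11 in replicate 2, and 36 and 29 footprints. Its highest peak was 2.97 and 3.498, below the median of 6.19 and 9.63 over the wide regions, so the widest region was not among the strongest. Plec, which encodes the cytolinker plectin, had 5925 bp with 40 footprints in each library (chr15:76196603-76202527). Its CpG ratio, the CpG count over that expected from the C and G content, was 0.285, close to the median of 0.288 over all joined regions and far under the 0.764 of the wide ones.

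Irs1, the adaptor that couples the insulin and IGF-1 receptors to PI3-kinase, had 5681 bp (chr1:82286498-82292178). The region ran 762 bp upstream and 4918 bp downstream of the most upstream coding start. Marcks, a substrate of protein kinase C at the plasma membrane, had 5658 bp with 36 footprints in each library, of which 23 pairs overlapped (chr10:37135921-37141578). The 5520 bp over Nfatc4, a transcription factor activated by calcineurin, reached 4201 bp downstream (chr14:55821826-55827345). Zfp503, a zinc finger repressor of development, had 5332 bp, of which only 446 bp lay upstream (chr14:21984716-21990047). The libraries gave nearly the same edges for these regions: the widths in replicate 1 and replicate 2 alone were 5681 and 5834 bp at Irs1, 5672 and 5662 bp at Marcks, 5905 and 5546 bp at Nfatc4 and 5359 and 5336 bp at Zfp503.

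Hdac5, a class IIa histone deacetylase that restrains MEF2, had 5172 bp and a CpG ratio of 0.231 (chr11:102215621-102220792). The starts inside it belong to shorter transcripts, and the region lies within the gene. Dbp, a clock output factor of the PAR bZIP family, had 5164 bp with a highest peak of 10.0 and 19.1 and 25 shared footprints (chr7:45703618-45708781). The remaining region of at least 5000 bp lay inside Tns1, which encodes the focal adhesion protein tensin 1, and was of another kind (chr1:73910891-73916019). It was 12198 bp from the nearest annotated start, its highest peak was only 0.604 and 0.763, and its width alone was 5129 bp in replicate 1 and 9345 bp in replicate 2.

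**Figure D1:**
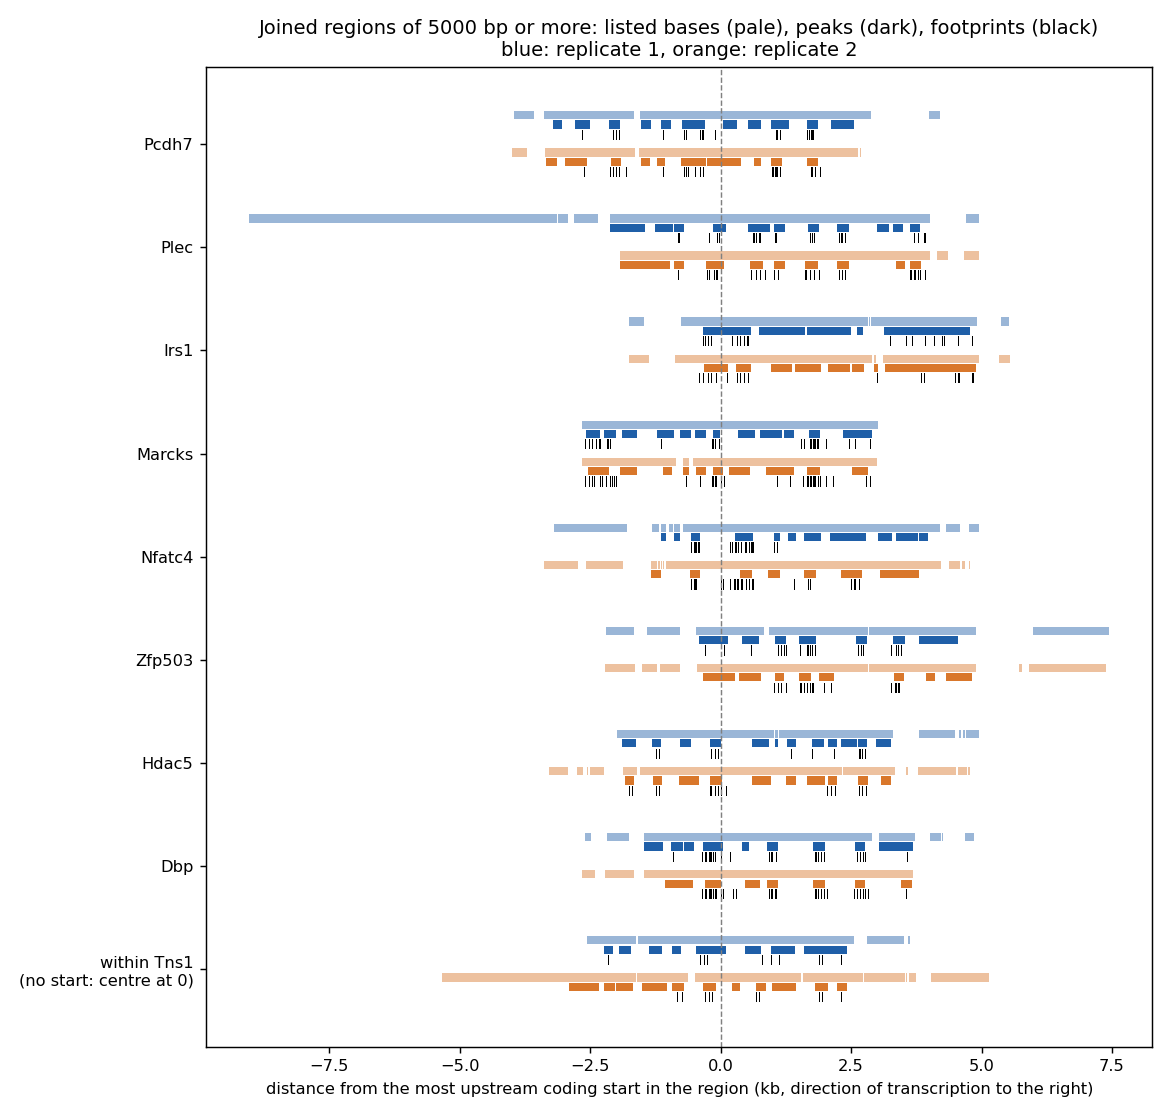
Listed bases with an FDR under 0.05 (pale), peaks (dark) and footprints (black) in the 9 regions of at least 5000 bp, by distance in kb from the most upstream coding start inside the region, or from the middle of the start-free Tns1 region, for replicate 1 (blue) and replicate 2 (orange). Listed runs are drawn up to 1500 bp beyond each region or to their own end. At Irs1, Nfatc4, Zfp503 and Dbp most of the width lies to the right of the start, whereas Pcdh7 extends further upstream, 3370 bp against 2682 bp.

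Ranks 10 to 20 by width held 8 regions with a coding start and 3 without. Brd2, a BET bromodomain protein that reads acetylated histones, shared 4853 bp with H2-DMa and held 53 and 54 footprints. Myc, the proto-oncogene and growth regulator, had 4215 bp with a highest peak of 2.35 and 4.75. Jun, a subunit of the AP-1 factor, had 4199 bp with a highest peak of 10.9 and 20.5. These 2 regions were almost equally wide, while the signal at Jun was several-fold that at Myc. Nfic, a nuclear factor I gene, had 4173 bp over the start of some of its transcripts and a second wide region of 2952 bp over others. Parp3 with Rrp9 (4836 bp), Mex3b (4712 bp), Actg1 (4410 bp) and Ptma (4221 bp) completed the regions with a coding start. Actg1 encodes cytoplasmic gamma-actin, and its region was one of those whose edges differed between libraries, 8509 bp in replicate 1 alone and 4410 bp in replicate 2 alone. The other 3 of the 20 had no start inside and lay near Tnrc18 (4645 bp), Zfp36l2 (4376 bp) and Azin1 (4360 bp).

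Wide regions lay mostly at gene starts. An annotated GENCODE M21 start lay inside 667 of 707, or 94.3% (95% exact binomial interval 92.4 to 95.9), and a coding start inside 647. Of the 85316 joined regions under 2000 bp, 16.8% held a start. That contrast came from the short regions, since the share was 5.30% under 500 bp, 61.9% at 500 to 999 bp, 89.1% at 1000 to 1499 bp and 94.2% at 1500 to 1999 bp. Above 2000 bp it did not climb further and was 92.4% at 3000 bp or more (86.1 to 96.5). A wider region has more bases in which a start can fall, so the middle base was examined too. It lay within 500 bp of a start in 88.1% of regions of 1000 to 1499 bp, in 75.1% of the wide ones and in 58.8% of those of 3000 bp or more.

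Most wide regions belonged to 1 gene. Coding starts of 1 gene lay in 573 of them and of 2 genes in 74, and none held coding starts of more. In 72 the coding starts ran on both strands, as at Col4a1 and Col4a2, the paired genes of type IV collagen that share 2457 bp, and at Eno3, the muscle enolase, with Pfn1, the actin-binding profilin (3630 bp). Starts of noncoding genes lay in 174 regions and were the only ones in 20. The 716 protein-coding genes with a coding start in a wide region were 3.46% of 20722. Among the 13933 genes whose promoter held a peak in both libraries the share was 5.14%.

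**Figure D2:**
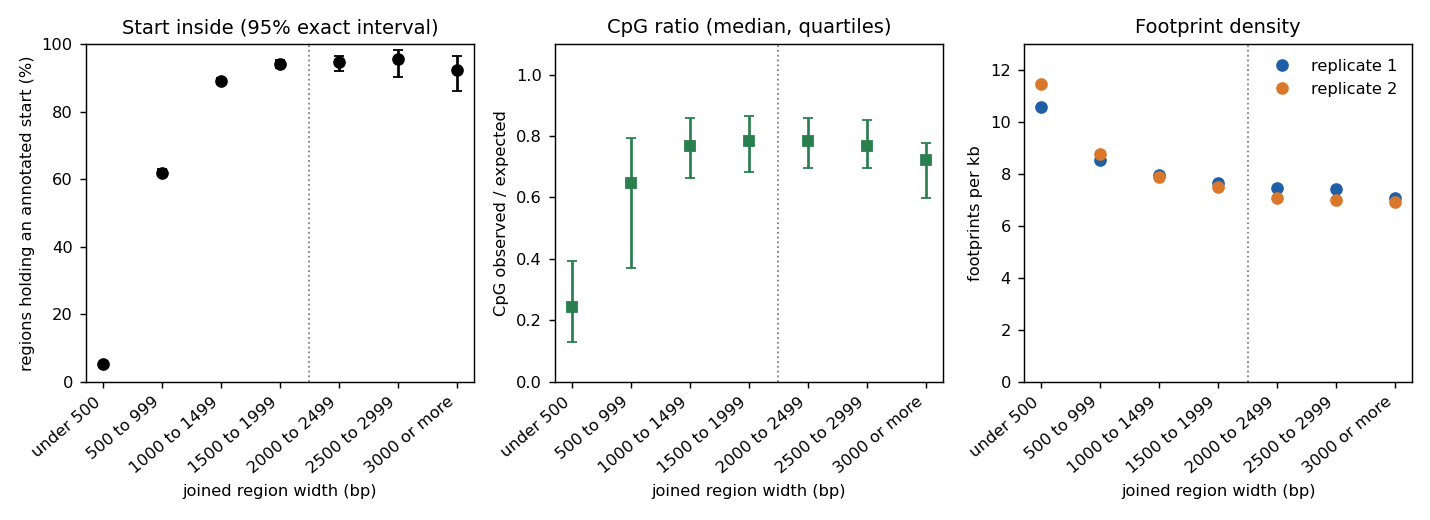
Joined regions by width class: share holding an annotated start with its 95% exact interval, CpG observed over expected with median and quartiles, and footprints per kb in each library. The dotted line marks 2000 bp; the start share and the CpG ratio level off before it, and footprint density falls from 10.6 and 11.5 per kb under 500 bp to 7.08 and 6.92 at 3000 bp or more.

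The regions were rich in CpG. The median ratio of observed to expected CpG was 0.764 and the median GC content 63.5%, against 0.288 and 54.5% over all joined regions. The ratio exceeded 0.6 in 618 wide regions, or 87.4%, against 19.5% of all joined regions. It did not rise with width beyond 1500 bp: medians were 0.785 at 1500 to 1999 bp, 0.782 at 2000 to 2499 bp and 0.723 at 3000 bp or more. Across the 707 regions, which differ in place and share both libraries, Spearman's rank correlation between width and the ratio was −0.19. Under a ratio of 0.3 lay 23 regions, and 18 of them held no start. The exceptions with a coding start were Plec, Hdac5, Lsp1 and Cdk2ap1, and the region over the noncoding gene Carmn near Il17b was the remaining one.

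Regions with coding starts of 1 gene reached further into the gene than away from it. From the most upstream coding start, the median reach was 818 bp upstream and 1606 bp downstream, and the downstream arm was longer in 452 of 573 (78.9%). The median difference was 813 bp. It was 1118 bp at 3000 bp or more, 382 bp at 1000 to 1499 bp and −6 bp under 500 bp. This rests on which start is taken: from the most downstream coding start inside the region the median difference was 10 bp. In the downstream arms 47.4% of bases were intron, 27.3% UTR and 19.9% coding sequence, and in the upstream arms 59.4% were intergenic and 24.8% intron. The highest peak had its middle within 500 bp of the start in 374 of the 573 regions in replicate 1 and in 390 in replicate 2. It lay over 500 bp downstream in 105 and 100 regions and over 500 bp upstream in 94 and 83.

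**Figure D3:**
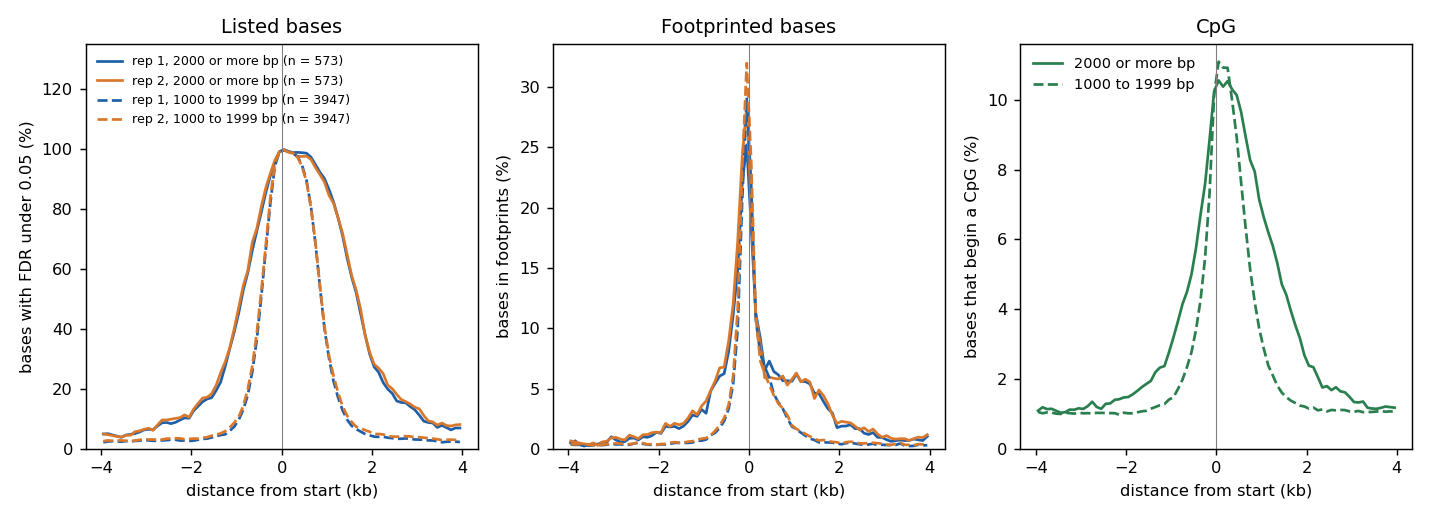
Percent of bases listed, percent in footprints and percent that begin a CpG, in 100-bp bins within 4 kb of the most upstream coding start, transcription to the right, for the 573 wide regions and 3947 regions of 1000 to 1999 bp with coding starts of 1 gene. In the bin centred 1050 bp downstream 86.5% and 84.5% of bases were listed in the wide regions, against 39.0% and 40.1% in the bin centred 1050 bp upstream.

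Over all wide regions, 13.2% of bases were coding sequence and 18.3% UTR, against 7.78% and 12.3% in all joined regions and 1.45% and 1.62% in the sequenced part of these chromosomes. Coding bases occurred in 509 regions. Whole coding genes fitted inside 5 of them. These were Gadd45g and Ier2, short stress and immediate early genes of 1791 and 1522 bp, with F930015N05Rik, Naa38 and Gm10840. Of the 716 genes, 40 (5.59%) had 1 exon, against 2.71% of the other genes with an open promoter and 5.74% of all. Among them were Jun, Sox4, Gas1 and the Wnt receptors Fzd7, Fzd1 and Fzd8. The 716 genes were nevertheless long, with a median span of 45554 bp against 24803 bp for the other genes with an open promoter. Of the 716, 73.2% had several coding starts, against 69.6%.

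Gene lists were read against the 3.46% of all coding genes. The lists were chosen with earlier results of these data known, so their shares and intervals describe them and are not tests. Regions of 1000 to 1999 bp held 24.4% of all coding genes. Most lists with a high share in wide regions were raised there too. Their shares there were 54.5% for TGF-beta and BMP genes and 50% each for chromatin regulators and calcineurin genes. Nuclear factor I, TEAD and forkhead genes had 48%, cytoskeleton 45.7%, insulin and IGF 44.8%, clock 42.1% and immediate early genes 41.7%. Wnt genes had 38.2% and nuclear receptors 31.0%. Developmental factors, at 26%, and collagens and matrix, at 25%, were hardly raised. The excess of the raised lists was thus not confined to wide regions. The highest share was that of developmental transcription factors, with 19 of 50 in a wide region (38.0%). Zfp503 (5332 bp), Zfp703 (3978 bp), Sox4 (3550 bp) and Six4 (3313 bp) were the widest, and Twist1, Meis1, Runx1, Runx2, Sox9 and Tbx18 were also among the 19. Most of the 19 had a highest peak under the medians over the wide regions, 6.19 and 9.63, in both libraries. Zfp703, Sox4, Irx5 and Pbx3 lay above both medians, and Zfp503 and Runx1 were split between the libraries. Of 39 genes of the HOX clusters, which set position along the body and limb axes, only Hoxa10 was in a wide region, at 2080 bp. Promoters of 23 of those 39 held a peak in both libraries. Counted in each library alone, the developmental list had 24 and 21 genes in regions of at least 2000 bp and the HOX list 1 and 1. For such counts, here and in the lists below, the share of all coding genes was 4.78% in replicate 1 and 4.81% in replicate 2. By the rule they cannot fall below the count in shared wide regions.

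Immediate early genes, which growth factors and stress induce without new protein synthesis, followed with 18 of 48 (37.5%). After Myc and Jun came Klf10, a TGF-beta-inducible repressor with 3877 bp and 42 footprints in each library, and Dusp6, the ERK phosphatase, with 3089 bp. Egr1, Atf3, Socs3, Sgk1, Jund and Ccn1 were among the rest. In the libraries alone the list had 21 and 24 genes. All 48 promoters held a peak in both libraries, so the other 30 were open without a wide region.

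Of insulin and IGF signalling genes, 10 of 29 were in wide regions (34.5%), from receptor to effectors. Igf1r, the IGF-1 receptor, had 3046 bp and the adaptors Irs1 and Irs2 had 5681 and 3276 bp. Among effectors, Foxo3 and Foxo1, forkhead factors that drive atrophy genes in muscle, had 3827 and 2721 bp. Akt1, Gsk3b and Rictor were also among the 10. The Igf1r region reached 2276 bp upstream and 769 bp downstream, the opposite of Irs1.

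Chromatin regulators had 13 of 46 genes in wide regions (28.3%). Brd2 led, followed by Smarca2, an ATPase of the SWI/SNF remodeller (3823 bp), Sin3a, a corepressor scaffold (3273 bp), and Arid1a, a SWI/SNF subunit (3095 bp). Sin3a had another wide region of 2420 bp over a further start, 416 bp away, and replicate 2 alone joined the 2 into 6151 bp. The acetyltransferases Crebbp and Ep300 and the methyltransferases Kmt2a and Dnmt3a were also there. Counts in the libraries alone were 13 and 18.

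The cytoskeleton list had 9 of 35 genes, with Plec, Marcks, Actg1 and Pfn1 widest, and Vim, Utrn, Actb, Ahnak and Tns2 below them. Clock genes had 5 of 19: Dbp (5164 bp), the repressor Bhlhe40 (3129 bp), Rora (2649 bp), Npas2 (2219 bp) and Nfil3 (2047 bp). Bhlhe40 had a highest peak of 12.8 and 12.9, nearly equal in the 2 libraries, whereas Dbp had 10.0 and 19.1. The calcineurin list had 5 of 20. Besides Nfatc4 and Hdac5 these were Ppp3ca, a catalytic subunit of calcineurin (2915 bp, highest peak 16.6 and 28.6), Nfat5 (2087 bp) and Camk2d (2013 bp).

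Of nuclear factor I, TEAD and forkhead genes 7 of 25 were in wide regions, led by Nfic, Foxo3, Foxp1 and Nfib. The Wnt list had 8 of 34, and its 4 widest were all Frizzled receptors, Fzd5 (3686 bp), Fzd7 (3441 bp), Fzd1 (3415 bp) and Fzd8 (3372 bp), ahead of Axin2, a feedback inhibitor (2313 bp). Of TGF-beta and BMP genes 7 of 33 were counted. They included the receptors Bmpr2 (2597 bp) and Tgfbr1 (2524 bp), the ligand inhibitors Fst (2726 bp) and Nog, and the nuclear corepressors Tgif1 (3447 bp) and Skil (2788 bp). Nuclear receptors had 6 of 29, with the glucocorticoid receptor Nr3c1 widest at 3198 bp. The Notch list had Jag1 (3615 bp) and Rbpj (2687 bp), 2 of 18, and collagens and matrix had 5 of 32, with Col12a1 widest (3861 bp).

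Genes that define muscle fibres were in wide regions at shares whose intervals hold the 3.46% of all coding genes. Of 55 sarcomere and triad genes 1 was, Eno3, which shares its region with Pfn1 (1.82%, 95% exact interval 0.0460 to 9.72). Of 15 myogenic factors 1 was, Srf, the serum response factor, at 2157 bp (6.67%, 0.169 to 31.9). Promoters of 47 of the 55 and 14 of the 15 held a peak in both libraries. In regions of 1000 to 1999 bp lay 7 of the sarcomere genes (12.7%) and 8 of the myogenic factors (53.3%), against 24.4% of all coding genes. In replicate 1 alone 3 sarcomere genes had a wide region and in replicate 2 alone 1, against 4.78% and 4.81% of all coding genes.

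The intervals of the 3 housekeeping lists held the 3.46% as well, and every promoter of these lists held a peak in both libraries. Of 47 cytosolic ribosomal protein genes 1 was in a wide region, Rpl7, which shares 2429 bp with the divergent Rdh10 (2.13%, 95% exact interval 0.0539 to 11.3). Of 31 proteasome and 42 respiratory chain genes, none was, which allows up to 11.2% and 8.41% by the 95% exact interval. In regions of 1000 to 1999 bp lay 46.8% of the ribosomal, 31.0% of the respiratory chain and 22.6% of the proteasome genes, against 24.4% of all coding genes. Of 27 endothelial and pericyte genes none was in a wide region either, and neither was any of 22 macrophage and lymphocyte, 13 hepatocyte or 13 neuronal genes. Egr1, which is also on the immediate early list, was the only one of 18 progenitor and tendon genes. Foxo1, Foxo3, Rora, Nr4a3 and Egr1 each stand on 2 lists.

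**Figure D4:**
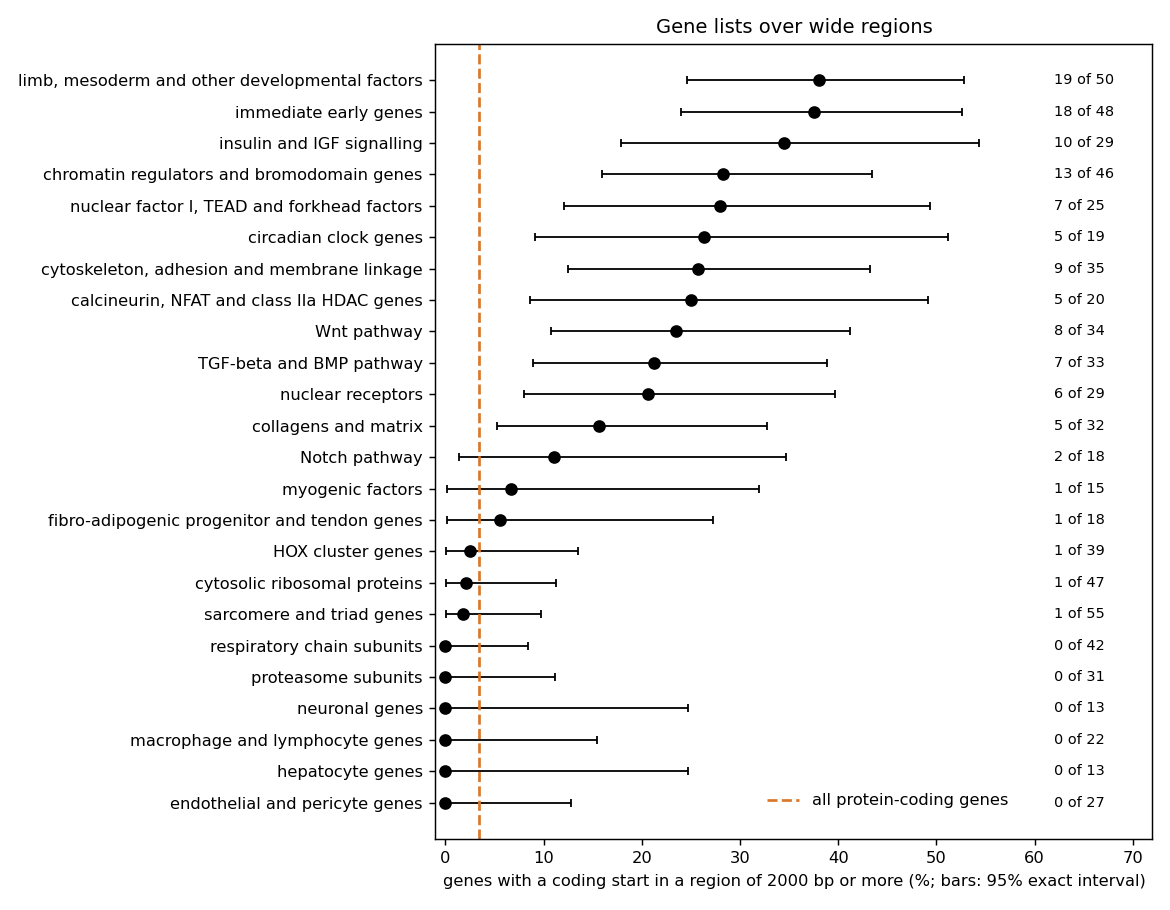
Percent of the autosomal genes of each of 24 lists with a coding start in a wide region, with its 95% exact binomial interval and the counts; the dashed line is the 3.46% of all protein-coding genes. The 11 lists farthest right lie from 38.0% down to 20.7%, while the Notch pathway lies at 11.1%, myogenic factors at 6.67% and HOX genes at 2.56%, and the intervals of these 3 cross the line. Sarcomere, ribosomal, proteasome and respiratory chain genes lie between 0 and 2.13%, with intervals that cross it too. The lists were chosen with earlier results of these data known.

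Peaks divided the wide regions into several. The median number of peaks was 5 in replicate 1 (range 2 to 12) and 4 in replicate 2 (2 to 14), and peaks covered 57.1% and 51.1% of the width. The regions held 2.81% and 2.24% of all peaks on these chromosomes. Their highest peak had a median of 6.19 and 9.63, against 0.897 and 1.098 for the highest peak of each joined region over all of them, and was higher in replicate 2 in 650 of 707. Regions of 1500 to 1999 bp had nearly the same medians, 6.48 and 9.89, and the rank correlation between width and highest peak was −0.0066 and 0.0057 among the wide ones.

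A wide region held a median of 18 footprints in replicate 1 and 17 in replicate 2, and the regions together held 4.35% and 3.46% of all footprints. Per kb this was 7.35 and 7.02, against 9.28 and 9.72 over all joined regions, most of which are short. Regions of 1500 to 1999 bp were close to the wide ones at 7.66 and 7.49. Overlaps between a footprint of each library numbered 4.81 per kb against 6.44. Footprinted bases peaked just upstream of the start and continued at a lower level along the downstream arm: in the bin centred 1050 bp downstream they were 6.20% and 6.29% of bases in the wide regions and 1.60% and 1.65% in regions of 1000 to 1999 bp, fewer of which reach that far.

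The densest region was that of Ppp2r3d, a regulatory subunit gene of protein phosphatase 2A, with 61 footprints in each library and 16.5 per kb (chr9:124422466-124426157). A region near Zbtb20 (14.1 per kb), the 2420-bp region of Sin3a (13.4), Sp3, a GC-box-binding factor (13.1), and Ube2d3, a ubiquitin-conjugating enzyme (12.3 in replicate 1 and 13.8 in replicate 2), followed. The sparsest was a start-free region near Zfp36l2 with 1 footprint in each library over 2215 bp, 0.451 per kb. Next were start-free regions near Sik1 (0.710), Gmip (1.49) and Llgl1 (2.23) and the promoter of Bicdl1 (2.38). The first 3 of these sparse regions had a highest peak under 0.4 in both libraries, and the Llgl1 and Bicdl1 regions did not, at 5.00 and 8.69 and at 6.89 and 6.82.

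Motif letters were searched in all joined regions on both strands, inside and outside footprints. The motifs were chosen with earlier results of these data known. The GC box GGGCGG occurred in 699 of 707 wide regions (98.9%) and in 22.7% of the others, which are shorter, and per kb 3.72 times against 2.02. The E-box CAGCTG, which MYOD and its relatives bind, was rarer at 0.626 per kb against 1.18. AP-1 sites, TGANTCA, occurred 0.137 times per kb against 0.296. The core site of the insulator protein CTCF was found 14 times in 13 wide regions, 0.0078 per kb against 0.180. The NRF1 site CGCATGCG had 0.024 per kb against 0.032, and the cAMP response element TGACGTCA 0.034 against 0.033. The parts of base composition and of place at gene starts in these densities were not tested. GC content was 63.5% in wide and 54.5% in all joined regions (medians). An annotated start lay in 94.3% of wide regions and in 16.8% of the others.

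A match counted as footprinted when its middle base lay in a footprint of both libraries, which 6.15% of all bases in wide regions and 8.71% in the others did. The CTCF matches were footprinted in 85.7% of the 14 in wide regions and in 91.1% elsewhere, NRF1 in 74.4% of 43 and 77.4%, and the cAMP response element in 59.0% of 61 and 59.3%. For these 3 sites the shares in wide and other regions lay within a few percentage points of each other. The GC box had 22.62% and 25.05% and the CCAAT box, CCAAT, of NF-Y 12.6% and 12.3%. The E-box was footprinted in 5.32% of its 1127 matches in wide regions and in 11.7% elsewhere, and AP-1 in 0.810% of 247 and 3.76%. Both shares in wide regions lay under the 6.15% of all bases, as did the 5.49% of the TEAD site. In the other regions AP-1, TEAD (7.12%) and MEF2 (4.41%) lay under the 8.71% of all bases, while the E-box lay above it. Of 21 matches to the MEF2 site in wide regions 19.05% were footprinted, against 4.41% elsewhere. For ETS (CCGGAAG), TEAD (GGAATG), YY1 (AAGATGGCG) and the CArG box of SRF the shares were 15.4%, 5.49%, 18.1% and 7.50%, each below the share in other regions. The KLF site CCACACCC had 9.50% against 9.74%, and the full NFI site had 1 match.

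The 40 wide regions with no annotated start fell into unlike kinds. They lay a median of 1848 bp from the nearest start, from 15 to 72259 bp, and 15 lay over 5 kb away. In 21 most of the bases were inside genes. Their median CpG ratio was 0.526 against 0.771 for regions with a start, their highest peak 3.25 and 5.02 against 6.35 and 9.92, and their footprints 5.65 and 5.62 per kb against 7.46 and 7.11. The ratio exceeded 0.6 in 17 of them and was under 0.3 in 18.

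Some were strong. The region 72259 bp from any start, with Irf2bp2, a transcriptional corepressor, as its nearest coding gene, had 2754 bp, a CpG ratio of 0.236 and 20 shared footprints. Another, 6441 bp from the nearest start and near Spen, a transcriptional repressor, had a CpG ratio of 0.842 (2221 bp). Near Tnrc18, 4645 bp had a highest peak of 7.64 and 14.4, and near Kdm6b, a histone H3K27 demethylase, 4066 bp had 8.72 and 13.3. The Tnrc18 region lay 249 bp from the wide region holding the gene's start, and replicate 2 alone joined them into 8066 bp. Regions near Azin1 (4360 bp), Llgl1 (3370 bp) and Zfp36l2 (3282 bp) had highest peaks from 3.42 to 9.48. Bodies of muscle genes were among the start-free regions. Inside Flnc, which encodes the Z-disc protein filamin C, 2845 bp began 784 bp downstream of the nearest start and held 24 and 31 footprints. Over the 3′ part of Acta1, skeletal alpha-actin, 2123 bp lay 1515 bp from the start and held 14 and 17. The Acta1 region was picked after its values were seen.

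Others were wide and weak. The highest peak was under 1 in both libraries in 16 wide regions, of which 10 held no start, and their median number of shared footprints was 1. A little above that level, 3176 start-free bp within Pcdh17, a protocadherin gene, had a highest peak of 1.79 and 1.27 and a CpG ratio of 0.699. The Pcdh17 region lay 762 bp from the nearest start and was part of 6065 bp in replicate 1 alone. The weak ones with a coding start were Rims2, a synaptic vesicle release factor, Fgf9, a growth factor, the forkhead factor Foxd1, Mdga2 and Adamts19, and their CpG ratios were 0.645 to 1.00. A further weak region, of 2451 bp, lay over the microRNA cluster near Rtl1, an imprinted locus, with a highest peak of 0.326 and 0.358 and no shared footprint. The 10 start-free weak regions were mixed in composition. Ratios were as low as 0.129 near Sik1, 0.164 near B4galt5 and 0.167 within Atp13a1, next to Gmip, and as high as 0.794 within Pcdh10.

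Some wide regions lay near each other, although the median gap between neighbours was 1.80 Mb. There were 17 neighbouring pairs within 20 kb of each other, and 20 groups within 50 kb took up 43 of the 707 regions. How often other joined regions or gene starts lie this close was not counted. The groups of 3 lay near Zfp36l2 (chr17:84160185-84183958), which encodes an mRNA decay factor, near Sik1 (chr17:31864373-31908451), a salt-inducible kinase, and at Tnrc18 (chr5:142813378-142824059). All 3 near Zfp36l2 and all 3 near Sik1 were start-free with CpG ratios under 0.3, and at Tnrc18 the middle one, of 3172 bp, held the gene's start. Chromosome 11 had the most wide regions, 57, while chromosome 19 had the most per 10 Mb, 4.72, and chromosome 12 the most per 100 coding genes, 4.98.

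By the rule, every member lies inside a region of at least 2000 bp in each library alone, so agreement on members was fixed in advance. The libraries differed at some edges and in which other regions reached that width. Replicate 1 alone had 1072 regions of at least 2000 bp and replicate 2 alone 1027, and of these 705 (65.8%) and 705 (68.6%) overlapped a shared wide region. The width of the own region was larger in replicate 2 for 417 members and in replicate 1 for 287, and the ratio exceeded 1.5 in either direction for 31 in all, 16 and 15. Spearman's rank correlation between the libraries was 0.78 for own width, 0.65 for footprints per kb and 0.94 for the highest peak, over 707 regions that were chosen in the same 2 libraries. The greatest difference was at a start-free region near Cep170b, 2178 bp in replicate 1 and 15263 bp in replicate 2. The 2215-bp region near Zfp36l2 was part of 7826 bp in replicate 1, where it was joined with its 4376-bp neighbour. Other large differences were at or near Mxd4 (4779 and 2305 bp), Tnrc18 (5788 and 2917 bp), Sik1 (4036 and 2115 bp), B4galt5 (2287 and 5211 bp) and Cdk2ap1 (2059 and 4119 bp). Of the 10 with the largest differences, 5 held no start.

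**Figure D5:**
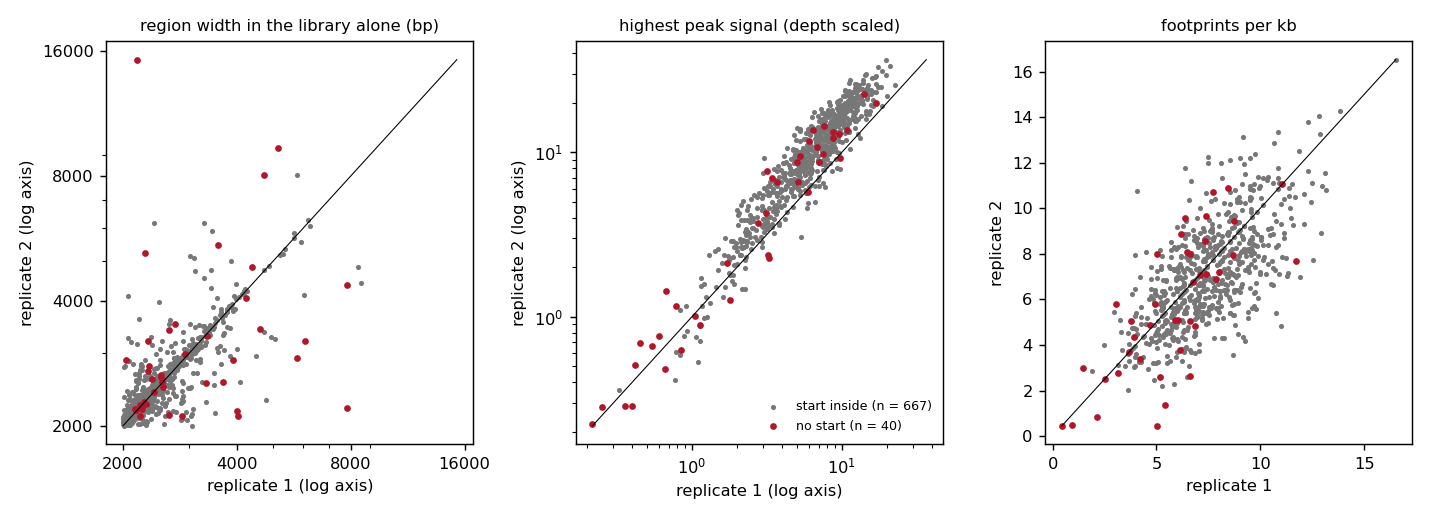
Each of the 707 wide regions by its values in replicate 1 and replicate 2: width of the region in the library alone (log axes), highest peak signal (log axes) and footprints per kb, with the 40 start-free regions in red and the line of equal values in black. Highest peaks lie above the line in 650 regions, and the points farthest from the line of equal width include start-free regions such as that near Cep170b.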

How the data were processed

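Per the notes deposited with the files, each library's peaks, footprints and FDR values were made separately from filtered alignments to mm10, with no pooling. No aligner, caller or version is given in the sources used here. The per-base FDR deposited by the authors, a p-value type of number, is listed only under 0.05. Peaks carry a signal that the authors scaled to depth, judging from the deposited values. Footprints carry the same value of 0.01 throughout, so positions alone were used. Depth is given as listed bases, since read totals were not analysed here.

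Listed bases of both libraries were intersected, joined over gaps of up to 150 bp on chromosomes 1 to 19 and kept at 2000 bp or more, with NumPy 2.4.6, pandas 2.3.3 and SciPy 1.17.1 in Python 3.11.15. Interval code was tested on simulated data. Transcription starts are those of GENCODE M21, pseudogenes left out, and sequence, in which CpG and motifs were counted, from the matching GRCm38 assembly. Peaks and footprints counted with an overlap of at least 1 bp, in the wider of each library's 2 peak sets. A promoter was open when a peak of each library touched the 500 bp around a coding start. Intervals are exact binomial at 95% and cover counting error only. Members, lists and motifs were chosen with earlier results of these data known. Named regions were the 20 widest, the 10 widest start-free, 5 on each side of 2000 bp, the 10 with the largest difference in own width, the 5 densest and 5 sparsest in footprints, and per list the 4 widest; others are listed for completeness or named as picked after their values were seen, and some list members are not reported here. Alternatives changed the gap, width, FDR, library, start set, peak set and counting rule.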

Additional observations from a re-analysis of the deposited data

How the results depend on the processing

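Of 60 alternative values, 28 stayed within the range set for them and 32 moved. None changed sign, which only the difference in reach could have done. Limits for a move were 1.5 times for the number of regions, the 95% interval for shares, and 1 SD between the libraries otherwise. The number of regions, 707, was 2027 at 1500 bp, 119 at 3000 bp, 301 at an FDR under 0.001, and 1027 to 1072 with 1 library left out. The share with a start, 94.3%, was 87.8 to 91.2% with 1 library left out and 91.5% with coding transcripts only. The share of coding genes, 3.46%, was 2.69% with gaps up to 50 bp, 4.63% with gaps up to 300 bp, 10.0% at 1500 bp, 0.555% at 3000 bp, 1.44% at an FDR under 0.001 and 4.78 to 4.81% with 1 library left out. The median number of peaks, 4.5 averaged over libraries, was 3 at 1500 bp and 7 at 3000 bp. Footprints per kb, 7.19, were 7.89 at an FDR under 0.001 and 6.54 to 6.65 with 1 library left out. The median CpG ratio, 0.764, was 0.784 and 0.745 with gaps up to 50 and 300 bp, 0.778 at 1500 bp, 0.723 at 3000 bp, 0.800 at an FDR under 0.001, 0.733 to 0.734 with 1 library left out and 0.771 without start-free regions; the SD between libraries was only 0.00077. The median downstream minus upstream reach, 813 bp, was 587 bp at 1500 bp, 1118 bp at 3000 bp, 767 to 827 bp with 1 library left out, 10 bp from the most downstream start and 734.5 bp with transcripts tagged basic. The last setting and the omission of start-free regions were added after seeing the data. No paired analysis was possible because there was 1 group. Counts of regions and genes follow the width threshold, and 2 libraries limit every estimate of spread; mapping of CAST alleles to the mm10 reference was not analysed here.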
